A study of Mus musculus with 20 samples.

Results

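The 9 genes described here are the transcription factor gene Nfe2l2, which encodes NRF2, the gene of its adaptor Keap1, and 7 genes of enzymes that break down heme or detoxify quinones, carbonyls, epoxides and aldehydes, Nqo1, Hmox1, Cbr1, Cbr3, Ephx1, Aox1 and Ugdh. They were chosen by name, as parts of 1 pathway, with earlier results of these data known. All 9 were among the 46078 genes of the liver count table and all 9 passed the filter on low counts, which kept 14759 genes. The livers came from 20 male mice of at least 9 weeks of age, in 6 groups. Of the Cse+/- mice 2 ate a control diet, 4 a diet lacking cysteine (no-Cys) and 3 a diet lacking tryptophan (no-Trp). Of the Cse-/- mice 4 ate no-Cys, 3 no-Trp, and 4 no-Trp with BSO. Cse-/- mice lack cystathionine gamma-lyase throughout the body and cannot make cysteine from methionine, and BSO blocks the first step of glutathione synthesis. The labels call the control genotype WT, whereas the study's list of mice gives it as heterozygous, and Cse+/- is used here. Cse-/- mice were on a mixed 129 and C57BL/6 background. Food was restricted for all, first with 3 days of control diet and then with 2 days of the diet of the group. Cse-/- mice given control diet are not part of the values below.

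NRF2 is a transcription factor whose amount is set mainly by protein breakdown. KEAP1 holds NRF2 and passes it to a ubiquitin ligase, and electrophiles or oxidants that react with cysteines of KEAP1 stop this, so that NRF2 reaches the nucleus, pairs with small MAF proteins and binds antioxidant response elements. In liver its best known readout is NQO1, and its targets also make glutathione, conjugate electrophiles and store iron. The amounts below are of mRNA, not of NRF2 protein, and whole liver was sequenced, so fewer cells of a type and less RNA per cell cannot be told apart.

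The promoters of 8 of the 9 genes were taken from RefSeq (GRCm38.p6) as windows of 300 bases, 250 before and 50 after the annotated start. They were searched on both strands for the core of the antioxidant response element, TGACNNNGC, in which N is any base. The core was in 2 of the 8 windows, those of Nfe2l2 and Ugdh, and in 12.4% of all 32851 windows of this length. Ugdh held 2 cores. The first began 132 bases before its start, on the strand of the gene (chr5:65435966-65435974), and the second 94 bases before it, on the other strand (chr5:65435928-65435936). The Nfe2l2 core lay 240 bases before the start (chr2:75704895-75704903). These windows are shown with the cores in capitals, and that of Nqo1 beside them because it held none and Nqo1 mRNA differed 4.89-fold between genotypes on the no-Cys diet. All 3 genes are read from the minus strand. The windows are chr5:65435793-65436092 for Ugdh, chr2:75704614-75704913 for Nfe2l2 and chr8:107403156-107403455 for Nqo1.
Ugdh: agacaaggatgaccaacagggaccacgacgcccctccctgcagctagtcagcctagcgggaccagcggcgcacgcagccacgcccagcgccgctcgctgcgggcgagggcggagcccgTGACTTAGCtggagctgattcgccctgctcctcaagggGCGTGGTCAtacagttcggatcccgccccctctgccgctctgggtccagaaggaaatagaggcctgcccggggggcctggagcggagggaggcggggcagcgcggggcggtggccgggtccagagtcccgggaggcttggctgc
Nfe2l2: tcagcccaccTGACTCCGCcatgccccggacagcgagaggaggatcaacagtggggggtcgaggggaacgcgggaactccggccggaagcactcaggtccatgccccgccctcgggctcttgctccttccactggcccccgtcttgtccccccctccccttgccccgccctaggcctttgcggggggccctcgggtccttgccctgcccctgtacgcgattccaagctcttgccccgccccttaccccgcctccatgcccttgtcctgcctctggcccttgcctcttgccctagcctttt
Nqo1: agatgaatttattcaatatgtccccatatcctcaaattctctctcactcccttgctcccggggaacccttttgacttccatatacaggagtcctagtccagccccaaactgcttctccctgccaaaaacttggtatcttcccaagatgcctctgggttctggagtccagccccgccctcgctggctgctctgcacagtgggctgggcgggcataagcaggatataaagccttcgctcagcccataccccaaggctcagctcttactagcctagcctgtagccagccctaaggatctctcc
A match of these letters is not evidence of binding, and the absence of a match concerns this window only.

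Library totals ran from 11785740 to 57986121 counts, and the 10 most abundant genes held 12.5% to 19.0% of them. Cth, the gene deleted in Cse-/- mice, stood at 6.37 to 14.4 CPM (counts scaled to the size of the library with trimmed mean of M-values factors) in Cse-/- livers and at 88.4 to 332 CPM in Cse+/- livers, with no overlap. All 7 hepatocyte markers were present in every group, and their summed level was 48556 to 78629 CPM in Cse-/- no-Cys livers against 93746 to 117285 CPM in Cse+/- no-Cys livers. Of the 7, 4 were called lower and 1 higher, against 12.2% and 11.6% of all genes. The 5 red cell markers tested were all called lower in the same comparison (summed 69.1 to 114 against 201 to 406 CPM), and of 10 macrophage and Kupffer cell markers 1 was called lower and none higher (286 to 352 against 346 to 425 CPM). Of 5 bile duct markers 2 were called lower (16.4 to 28.6 against 45.9 to 57.9 CPM), as were 2 of 6 stellate cell and fibroblast markers, and of 6 sinusoidal endothelial markers 1 was called higher and 1 lower. Adipose markers summed to under 1 CPM except in no-Trp livers, where they reached 31.3 CPM in a Cse+/- and 13.2 CPM in a Cse-/- mouse. The hepatocyte sum was 72248 to 88435 CPM in Cse-/- no-Trp + BSO and 76918 to 83974 CPM in Cse-/- no-Trp livers, which overlapped. The part of these shifts in the results below was not tested.

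**Figure D1:**
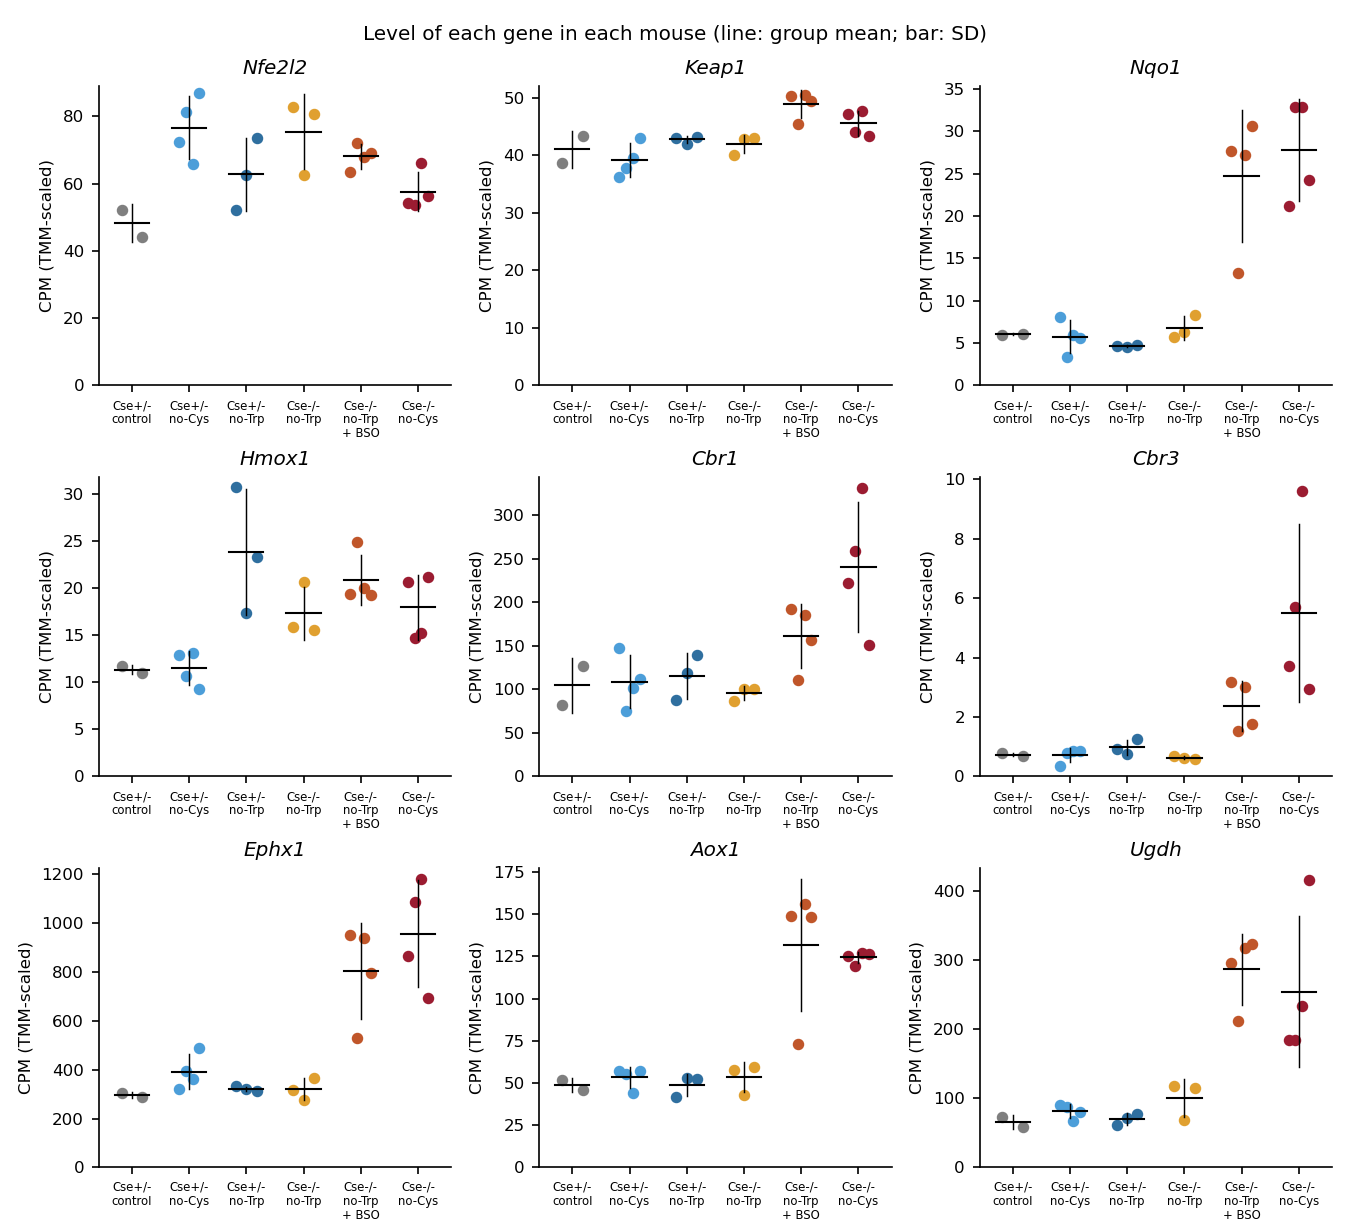
Level of each of the 9 genes (CPM, linear axis from 0) in each of the 20 mice, by group, where points are mice, horizontal lines group means and vertical bars 1 SD. Nqo1, Cbr3, Ephx1, Aox1 and Ugdh are high in Cse-/- no-Cys and Cse-/- no-Trp + BSO livers, whereas Keap1 lies between 36.2 and 50.5 CPM in every mouse.

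On the no-Cys diet, Cse-/- livers had higher mRNA of all 7 enzymes and lower Nfe2l2 mRNA than Cse+/- livers. In Cse-/- no-Cys against Cse+/- no-Cys livers, 8 of the 9 genes were called higher, against 11.6% of all genes tested, and 1 was called lower, against 12.2%. Here and below a call is an edgeR adjusted p under 0.05 over all 14759 genes. The median log2 fold change was 1.22 over the 9 genes and -0.01 over all genes. The p-values measure the spread between these mice only.

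Nfe2l2 (chromosome 2, 75675513 to 75704641) was lower in Cse-/- than in Cse+/- livers on the no-Cys diet. It stood at 54.4, 53.5, 66.0 and 56.4 CPM in Cse-/- mice av05 to av08 and at 72.4, 81.3, 65.8 and 86.8 CPM in Cse+/- mice av01 to av04. The ranges met only through av07 and av03. The log2 fold change was -0.41 (SE 0.12, edgeR adjusted p = 0.0157), and the call was lost without av04 or without av05 (adjusted p 0.0577 and 0.0560). Within Cse+/- mice the no-Cys diet had the opposite direction. The 2 mice on the control diet had 52.2 and 44.2 CPM, both below all 4 on the no-Cys diet, and the difference was 0.67 (SE 0.15, edgeR adjusted p = 0.0201). It was the only call among the 9 genes in Cse+/- no-Cys against Cse+/- control livers, a comparison in which 0.989% of genes were called higher. This call rested on 2 control mice and was lost without av02, av21 or av22 (adjusted p 0.0536 to 0.403), and when just these 2 groups were fitted (adjusted p = 0.0631). Of the cell markers 1 of 5 for bile duct was called lower here, where 176 of 14759 genes were, and 0 of 7 for hepatocytes. The hepatocyte sum was 93746 to 117285 CPM on no-Cys and 121033 to 121509 CPM on control. The macrophage and Kupffer cell sum was 346 to 425 against 288 to 323 CPM, with 0 of 10 markers called. The part of these shifts was not tested.

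Keap1 (chromosome 9, 21229730 to 21239361) had the narrowest range of the 9 genes for its level. It stood at 47.2, 44.0, 47.6 and 43.2 CPM in Cse-/- no-Cys livers and at 36.2, 37.8, 39.4 and 43.0 CPM in Cse+/- no-Cys livers, so that the lowest of the first lay just above the highest of the second. The log2 fold change was 0.22 (SE 0.07, edgeR adjusted p = 0.0350). The call was lost when any of 6 libraries was left out, av01, av02, av03, av05, av06 or av07 (adjusted p 0.0536 to 0.0922). It was also lost with no filter on low counts, after thinning to the shallowest library and when just these 2 groups were fitted (adjusted p 0.0839 to 0.174). An antisense gene on the opposite strand covers 510 bases (10.9%) of the Keap1 exons, and the counting is not stated to use strand, so reads there could not be told apart. The antisense gene itself had 5 to 44 counts per library.

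Nqo1 (chromosome 8, 107388225 to 107403206) encodes the quinone reductase that passes pairs of electrons to quinones and so avoids semiquinone radicals. It stood at 21.1, 32.9, 32.9 and 24.3 CPM in Cse-/- no-Cys livers and at 8.11, 3.32, 5.91 and 5.59 CPM in Cse+/- no-Cys livers. The lowest Cse-/- liver lay far above the highest Cse+/- liver, av01. The log2 fold change was 2.29 (SE 0.25, edgeR adjusted p = 4.49e-06), or 4.89-fold.

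Hmox1 (chromosome 8, 75093621 to 75100589) encodes heme oxygenase 1, which opens heme to biliverdin, iron and carbon monoxide and is also high in macrophages. It stood at 20.7, 14.7, 15.3 and 21.2 CPM in Cse-/- no-Cys livers and at 12.9, 10.7, 13.1 and 9.34 CPM in Cse+/- no-Cys livers, without overlap. The log2 fold change was 0.65 (SE 0.17, edgeR adjusted p = 0.0109), the smallest of the 7 enzymes.

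Cbr1 and Cbr3 encode carbonyl reductases that turn ketones and quinones into alcohols and hydroquinones, and they lie on chromosome 16 in the same direction, with 72709 bases between them (Cbr1 93605853 to 93610505, Cbr3 93683215 to 93690990). Cbr1 stood at 223, 259, 331 and 151 CPM in Cse-/- no-Cys livers and at 148, 74.6, 102 and 112 CPM in Cse+/- no-Cys livers, so that av08 and av01 nearly met. Its log2 fold change was 1.14 (SE 0.23, edgeR adjusted p = 0.00157). Cbr3 was the scarcest of the 9 genes, with 4, 11, 11 and 12 counts in the Cse+/- and 63, 78, 155 and 40 counts in the Cse-/- livers. In CPM these were 0.360, 0.776, 0.855 and 0.849 against 3.72, 5.72, 9.62 and 2.95 CPM. Its log2 fold change of 2.92 (SE 0.38, edgeR adjusted p = 2.78e-05) was the highest of the 9. Per kilobase of exon, Cbr3 mRNA was 0.0147 ± 0.0069 (SD, n = 4) of Cbr1 mRNA in Cse+/- no-Cys livers and 0.0445 ± 0.0108 (SD, n = 4) in Cse-/- no-Cys livers. Their transcripts shared no stretch of 61 bases, the length of a read.

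Ephx1 (chromosome 1, 180976210 to 181020904) encodes microsomal epoxide hydrolase, which opens reactive epoxides to diols. It stood at 864, 1086, 1179.7 and 694 CPM in Cse-/- no-Cys livers and at 320.0, 395, 362 and 489 CPM in Cse+/- no-Cys livers. The lowest Cse-/- mouse, av08, was well above the highest Cse+/- mouse, av04. Ephx1 differed by 1.29 on the log2 scale (SE 0.18, edgeR adjusted p = 5.58e-05). Per kilobase of exon Ephx1 was the most abundant of the 9 genes, with a mean of 285 CPM per kilobase over the 20 livers, ahead of Cbr1 (56.6) and Ugdh (23.2), while Cbr3 was the lowest (1.62). A pseudogene on the same strand covers 72 bases (3.69%) of its exons and had 0 counts in all libraries.

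Aox1 (chromosome 1, 58029931 to 58106413) encodes a molybdenum-containing aldehyde oxidase. Its values in Cse-/- no-Cys livers were the tightest of the 7 enzymes, 125, 119.6, 127 and 126 CPM, against 57.0, 55.1, 44.3 and 57.1 CPM in Cse+/- no-Cys livers. Aox1 differed by 1.22 on the log2 scale (SE 0.18, edgeR adjusted p = 7.57e-05).

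Ugdh (chromosome 5, 65413221 to 65435949) encodes UDP-glucose dehydrogenase, which makes the UDP-glucuronate used in glucuronidation. It stood at 185, 185, 233 and 416 CPM in Cse-/- no-Cys livers and at 90.7, 87.3, 67.3 and 80.4 CPM in Cse+/- no-Cys livers. All Cse-/- mice were above all Cse+/- mice, and av08 stood well above the other Cse-/- mice. Ugdh differed by 1.65 on the log2 scale (SE 0.23, edgeR adjusted p = 5.46e-05). Its annotated exons share 158 bases (2.34%) with a predicted gene that had 0 counts in all libraries.

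The mice of the Cse-/- no-Cys group did not have the same order for every gene. Mouse av07 had the highest Cbr1, Cbr3 and Ephx1, and av08 had the lowest of these 3 but the highest Ugdh and Hmox1. The hepatocyte marker sum was 78629 CPM in av08 and 48556 to 52549 CPM in the other 3 mice of this group, and the part of this difference was not tested.

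**Figure D2:**
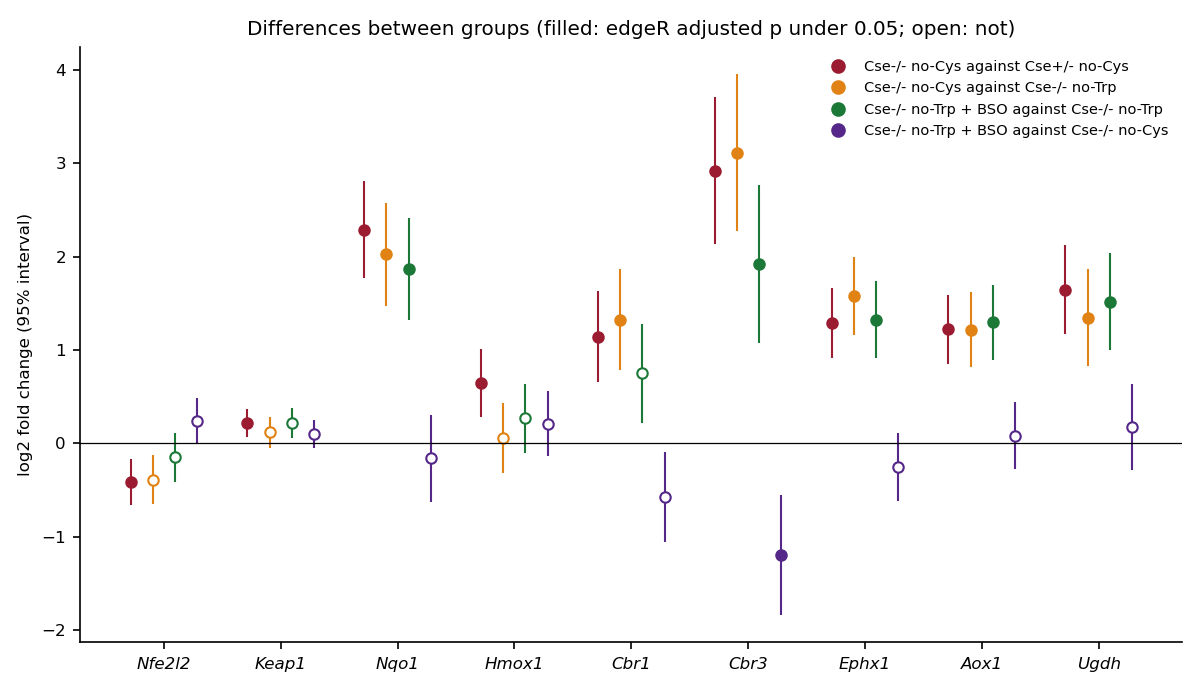
Log2 fold change of each gene (vertical axis) with its 95% interval in 4 comparisons, where filled points have an edgeR adjusted p under 0.05. The points of Nqo1, Cbr3, Ephx1, Aox1 and Ugdh lie above 1 in the first 3 comparisons, while in Cse-/- no-Trp + BSO against Cse-/- no-Cys livers only Cbr3 is called, at -1.19.

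The no-Trp diet, which lacks an amino acid other than cysteine, was the comparison for the no-Cys diet within Cse-/- mice. Cse-/- no-Cys livers had more mRNA than Cse-/- no-Trp livers of Nqo1, Cbr1, Cbr3, Ephx1, Aox1 and Ugdh, 6 of the 9 genes, in a comparison in which 5.05% of all genes were called higher. edgeR called 0 lower, with 1, Nfe2l2, at an unadjusted p under 0.05 and called by DESeq2. This comparison uses the same Cse-/- no-Cys mice as the one above. Of the cell markers, 4 of 7 for hepatocytes, 3 of 5 for red cells and 1 of 5 for bile duct were called lower too. Over all genes 789 of 14759 were called lower here. The part of these markers in the differences was not tested.

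Nqo1 stood at 5.74, 6.30 and 8.37 CPM in Cse-/- no-Trp mice av14 to av16, below every Cse-/- no-Cys mouse, and differed by 2.03 on the log2 scale (SE 0.26, edgeR adjusted p = 1.37e-04). Cbr3 stood at 0.691, 0.623 and 0.580 CPM (16, 10 and 14 counts) and differed by 3.11 (SE 0.40, adjusted p = 1.28e-04). Cbr1 stood at 87.2, 101 and 99.98 CPM and differed by 1.33 (SE 0.26, adjusted p = 0.00375). These 3 genes of quinone and carbonyl reduction had no overlap between the groups. Ephx1 stood at 318, 276 and 365 CPM and differed by 1.58 (SE 0.20, adjusted p = 1.09e-04). Aox1 stood at 57.6, 43.1 and 59.8 CPM and differed by 1.22 (SE 0.19, adjusted p = 6.57e-04). Ugdh stood at 117, 68.4 and 115 CPM and differed by 1.35 (SE 0.25, adjusted p = 0.00253). Again no Cse-/- no-Trp mouse reached the Cse-/- no-Cys range.

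Hmox1 and the regulators were different. Hmox1 stood at 15.8, 20.6 and 15.6 CPM in Cse-/- no-Trp livers, within the range of the Cse-/- no-Cys mice, with a difference of 0.06 (95% interval -0.32 to 0.43, edgeR adjusted p = 0.884). Keap1 stood at 40.1, 42.8 and 42.9 CPM, a difference of 0.12 (interval -0.04 to 0.28, adjusted p = 0.349). Nfe2l2 stood at 82.8, 62.5 and 80.8 CPM, and av15 fell within the Cse-/- no-Cys range. Its difference of -0.39 (SE 0.13, edgeR adjusted p = 0.0534) became a call without av07 or av15 (adjusted p 0.0485 and 0.0197) and with DESeq2 (adjusted p = 0.0340).

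With BSO on the no-Trp diet, 5 of the 9 genes were called higher in Cse-/- livers, Nqo1, Cbr3, Ephx1, Aox1 and Ugdh, where 0.488% of all genes were called higher in this comparison. Their log2 fold changes were between 1.30 and 1.92, and the median over the 9 genes was 1.30 against -0.0048 over all genes. This comparison shares no mouse with that of the genotypes on the no-Cys diet.

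Nqo1 stood at 27.7, 13.3, 27.2 and 30.7 CPM in Cse-/- no-Trp + BSO mice av09 to av12, all above the Cse-/- no-Trp mice (log2 fold change 1.87, SE 0.26, edgeR adjusted p = 0.00154). Aox1 stood at 149, 73.0, 156 and 148 CPM (1.30, SE 0.19, adjusted p = 0.00216). Ephx1 stood at 949, 529, 938 and 794 CPM (1.33, SE 0.20, adjusted p = 0.00216). In these 3 genes av10 was the lowest mouse on BSO, yet above every mouse without it. Ugdh stood at 297, 212, 317 and 323 CPM (1.52, SE 0.25, adjusted p = 0.00436), again with av10 lowest. Cbr3 stood at 3.19, 1.54, 3.02 and 1.76 CPM, from 183, 23, 43 and 55 counts (1.92, SE 0.40, adjusted p = 0.0263). The groups did not overlap, but the Cbr3 call was lost when av09, av11, av14, av15 or av16 was left out (adjusted p 0.0766 to 0.130).

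Cbr1, Hmox1, Keap1 and Nfe2l2 did not pass the test on BSO. Cbr1 stood at 193, 111, 185 and 157 CPM, above all 3 mice without BSO, with a difference of 0.75 (95% interval 0.22 to 1.28, edgeR adjusted p = 0.179). With no filter on low counts it was called (adjusted p = 0.0360). Keap1 stood at 50.3, 45.4, 50.5 and 49.4 CPM, also above all 3, with a difference of 0.22 (interval 0.06 to 0.38, adjusted p = 0.1904). Hmox1 stood at 19.4, 24.9, 20.004 and 19.3 CPM, with a difference of 0.27 (interval -0.10 to 0.64, adjusted p = 0.562). Its highest mouse was av10, the mouse that was lowest for 6 of the enzymes. Nfe2l2 stood at 63.3, 72.2, 67.9 and 69.2 CPM, within the range of the mice without BSO (difference -0.15, interval -0.41 to 0.11, adjusted p = 0.678).

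**Figure D3:**
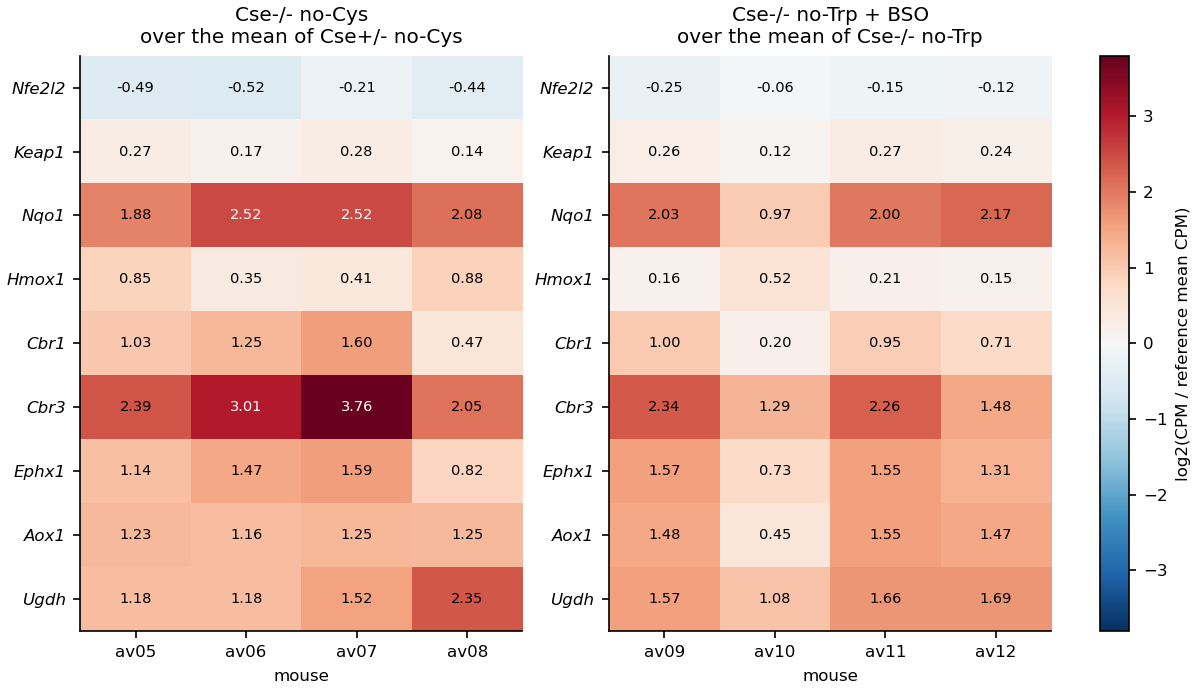
Each cell gives log2 of a mouse's CPM over the mean of the reference group named above the panel, for the 9 genes (rows) and the 4 mice (columns) of Cse-/- no-Cys (left) and Cse-/- no-Trp + BSO (right). Mouse av10 has the lowest values of its group for Nqo1 (0.97), Aox1 (0.45) and Cbr1 (0.20), and av08 has the highest value for Ugdh (2.35).

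Cse-/- livers on no-Trp + BSO and on no-Cys differed by a call in 1 of the 9 genes. Of the cell markers, 3 of 7 for hepatocytes and 2 of 5 for bile duct were called higher on no-Trp + BSO. Over all genes 210 of 14759 were called higher here. The part of these markers in the values was not tested. Cbr3 was lower on no-Trp + BSO than on no-Cys by 1.19 on the log2 scale (95% interval -1.84 to -0.55, edgeR adjusted p = 0.0425), where 1.33% of all genes were called lower, and av09 and av11 lay within the no-Cys range. Leaving out any of 7 libraries, av05, av06, av07, av09, av10, av11 or av12, ended this call (adjusted p 0.0639 to 0.162, with the difference at -0.78 without av07), as did thinning to the shallowest library or fitting only the groups compared (adjusted p 0.0526 to 0.0800). Cbr1 was lower by 0.58 (interval -1.06 to -0.09, adjusted p = 0.173), and it passed only without av08 (adjusted p = 0.0476). For Nqo1 the difference was -0.16 (interval -0.62 to 0.30), for Aox1 0.08 (-0.27 to 0.44), for Ephx1 -0.25 (-0.62 to 0.12) and for Ugdh 0.17 (-0.29 to 0.64). None of these 4 passed the test, and their groups overlapped. For Nfe2l2, Keap1 and Hmox1 the differences were 0.24 (interval -0.0031 to 0.49), 0.10 (-0.05 to 0.25) and 0.21 (-0.13 to 0.56).

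On the no-Trp diet the genotypes were not separated by a call in any of the 9 genes. In Cse-/- no-Trp against Cse+/- no-Trp livers, edgeR called 0 of the 9 genes (2.64% of all genes tested were called in either direction), DESeq2 called 0, and 1, Hmox1, had an unadjusted p under 0.05. Nqo1 stood at 4.62, 4.53 and 4.81 CPM in Cse+/- no-Trp mice av17, av19 and av20, all below the Cse-/- no-Trp mice, but the difference of 0.55 did not pass (95% interval -0.04 to 1.15, adjusted p = 0.311). Ugdh stood at 61.1, 71.6 and 78.0 CPM, with a difference of 0.51 (interval -0.03 to 1.05). Cbr3 stood at 0.924, 0.748 and 1.26 CPM, all above the Cse-/- mice, with a difference of -0.59 (interval -1.55 to 0.36). Cbr1 stood at 87.4, 119 and 139.6 CPM, with a difference of -0.27 (interval -0.82 to 0.29). Hmox1 stood at 30.8, 17.4 and 23.3 CPM and differed by -0.45 (interval -0.85 to -0.05, adjusted p = 0.210). Nfe2l2 stood at 52.1, 62.6 and 73.6 CPM and differed by 0.26 (interval -0.02 to 0.55). The other 3 genes differed by -0.03 to 0.13.

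The genotype difference itself differed between the diets for most of the enzymes. The test of this, Cse-/- against Cse+/- on no-Cys minus the same on no-Trp, called 6 of the 9 genes higher, against 1.67% of all genes, and 1 lower, Nfe2l2, against 2.69%. In the same test 2 of 7 hepatocyte and 1 of 5 red cell markers were called lower and 1 of 6 sinusoidal endothelial markers higher, and their part was not tested. The difference between the diets was 3.52 for Cbr3 (SE 0.60, edgeR adjusted p = 0.00278), 1.74 for Nqo1 (SE 0.38, adjusted p = 0.0133), 1.29 for Ephx1 (SE 0.27, adjusted p = 0.0107) and 1.10 for Aox1 (SE 0.26, adjusted p = 0.0233). It was 1.41 for Cbr1 (SE 0.35, adjusted p = 0.0283) and 1.09 for Hmox1 (SE 0.26, adjusted p = 0.0199). Nfe2l2 went the other way, by -0.68 (SE 0.18, adjusted p = 0.0369), since its genotype difference was below 0 on no-Cys and above 0, without a call, on no-Trp. Ugdh (1.13, SE 0.34, adjusted p = 0.0636) and Keap1 (0.24, adjusted p = 0.222) did not pass, and Ugdh passed without av05 (adjusted p = 0.0469), with DESeq2 (0.0167) and with no filter on low counts (0.00646). With just these 4 groups in the fit the call of Nfe2l2 was lost (adjusted p = 0.0879). Leaving out a library ended the call of Nfe2l2 in 8 cases (av02, av04, av05, av06, av14, av16, av17 and av19, adjusted p 0.0689 to 0.0978), of Cbr1 in 6 (av02, av06, av07, av14, av19 and av20, 0.0518 to 0.0676), of Aox1 in 3 (av15, av19 and av20, 0.0509 to 0.0557) and of Hmox1 in 1 (av17, 0.0563), so that Cbr3, Nqo1 and Ephx1 held throughout.

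**Figure D4:**
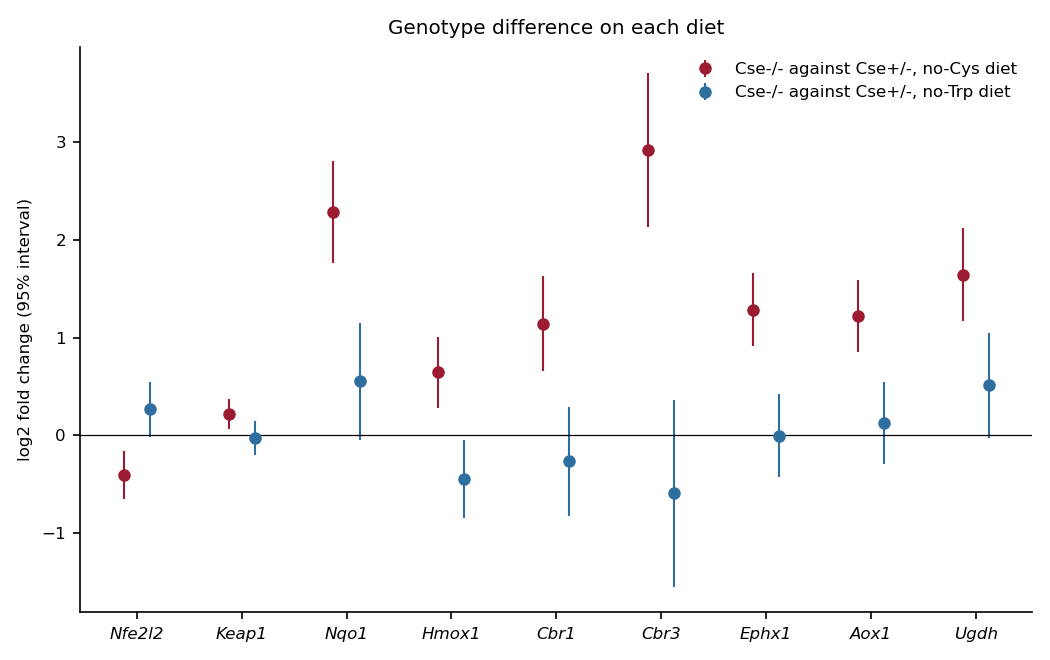
Log2 fold change of Cse-/- against Cse+/- livers (vertical axis, 95% interval) for each gene on the no-Cys diet (red) and the no-Trp diet (blue). Cbr3 is at 2.92 on no-Cys and -0.59 on no-Trp, and Nfe2l2 is at -0.41 on no-Cys and 0.26 on no-Trp.

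In Cse+/- mice 1 of the 9 genes, Nfe2l2, was called between a diet and the control diet. The control mice av21 and av22 had 5.95 and 6.13 CPM of Nqo1, 82.2 and 127 CPM of Cbr1, 0.773 and 0.696 CPM of Cbr3 and 306 and 289 CPM of Ephx1. Their Keap1 was 38.7 and 43.3 CPM, Aox1 52.0 and 46.1 CPM and Ugdh 73.4 and 58.8 CPM. Apart from Nfe2l2, described above, and Ephx1, which differed by 0.40 (95% interval -0.06 to 0.86, edgeR adjusted p = 0.380), the differences on no-Cys against control ran from -0.09 to 0.30. On no-Trp against control edgeR called 0 of the 9 genes, where 0.0474% of all genes were called, 2 had an unadjusted p under 0.05, Nfe2l2 (0.38, adjusted p = 0.448) and Hmox1, and DESeq2 called 1. That was Hmox1, at 11.7 and 11.0 CPM on the control diet and at 17.4 CPM or more in each no-Trp mouse. Its difference was 1.06 (interval 0.59 to 1.52, edgeR adjusted p = 0.133), and the adjusted p was 0.00497 with DESeq2, 0.00378 with no filter on low counts and 0.0317 without av19. The summed macrophage and Kupffer cell markers were 288 to 323 CPM in the control and 372 to 455 CPM in the Cse+/- no-Trp mice, and their part in the Hmox1 values was not tested. The other 7 genes differed by -0.38 to 0.37.

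Ordered by group mean, 5 of the enzymes, Nqo1, Cbr3, Ephx1, Aox1 and Ugdh, had the same division of the groups. Cse-/- no-Cys and Cse-/- no-Trp + BSO stood at the top, with ranges that overlapped each other, and their ranges lay apart from the next group below. Among the 4 lower groups every pair of neighbours overlapped for these genes. How many of all genes divide the groups in this way was not counted. For Hmox1 the division was different, with both Cse+/- control and Cse+/- no-Cys low (9.34 to 13.1 CPM) and the other 4 groups above them and overlapping (14.7 to 30.8 CPM). For Nfe2l2 only Cse+/- control lay apart from its neighbour. For Cbr1 all neighbours overlapped. Relative to Nfe2l2 mRNA per kilobase, Nqo1 mRNA was 0.188 ± 0.076 (SD, n = 4) in Cse+/- no-Cys livers, 0.896 ± 0.3003 (SD, n = 4) in Cse-/- no-Trp + BSO livers and 1.18 ± 0.24 (SD, n = 4) in Cse-/- no-Cys livers.

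Other parts of the NRF2 pathway were counted in lists chosen with earlier results of these data known. The counts stand beside the share of all genes called in the same comparison and are a description. Of 15 genes for partners, repressors and degradation of NRF2, 5 were called higher and 1 lower in Cse-/- no-Cys against Cse+/- no-Cys livers, where 11.6% of all genes were higher and 12.2% lower (median 0.09 against -0.01 over all genes). The 1 lower gene is no more than that share. The highest were Sqstm1, which encodes the autophagy receptor p62 that binds KEAP1 (0.90, edgeR adjusted p = 1.78e-06), and Mafk, a small MAF partner (0.65, adjusted p = 0.00118). Named after their values were seen, Bach1, a repressor that competes with NRF2 (0.50, adjusted p = 0.00243), Mafg (0.48, adjusted p = 0.00697) and Dpp3 (0.45, adjusted p = 0.00286) were also higher. Btrc, a subunit of another ligase that degrades NRF2, was the gene called lower (-0.38, adjusted p = 0.0394). With BSO edgeR called 0 of the 15, 4 had an unadjusted p under 0.05, all higher, and DESeq2 called 1, and Sqstm1 differed by 0.40 (adjusted p = 0.0606).

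Of 33 NRF2 target genes outside the 9, 31 were tested. In Cse-/- no-Cys against Cse+/- no-Cys livers 18 were called higher and 3 lower against 11.6% and 12.2% of all genes (median 0.49 against -0.01), with 17 or 18 higher when any library was left out. The 3 lower genes are no more than the share over all genes. The highest were Gsta1 (3.11, edgeR adjusted p = 6.02e-05) and Gsta2 (2.90, adjusted p = 4.49e-06), which encode glutathione transferases. The lowest were Ptgr1, a prostaglandin reductase that also reduces reactive alkenals (-2.38, adjusted p = 1.56e-05), and Akr1b8, an aldo-keto reductase (-0.65, adjusted p = 0.0428). Ptgr1, Akr1b8 and Gsta1 were scarce. Mean levels in Cse-/- and Cse+/- no-Cys livers were 0.585 and 2.99 CPM for Ptgr1 and 1.43 and 2.26 CPM for Akr1b8. For Gsta1 they were 6.13 and 0.697 CPM. Against Cse-/- no-Trp livers 19 were called higher, against 5.05% of all genes (median 0.56), with 14 to 19 when a library was left out. edgeR and DESeq2 called 0 lower, and 1 had an unadjusted p under 0.05. With BSO 13 were called higher, against 0.488% of all genes (median 0.58 against -0.0048), 17 by DESeq2, led by Gstm3 (2.23, adjusted p = 0.00662) and Gstm1 (2.03, adjusted p = 9.89e-04). With BSO too edgeR and DESeq2 called 0 lower, with 1 at an unadjusted p under 0.05. The count of 13 became 7 without av09 or without av15 and was at most 15. Leaving out libraries here was chosen after seeing the data. The Gsta and Gstm genes have near-identical copies, and the split of reads between them is uncertain. In 24 of the 31 genes the log2 fold change was above 0 both for genotype on no-Cys and for BSO on no-Trp, which share no mouse, and Pearson's r across these genes was 0.73. Genes are not independent replicates, and this r is a description. The same count and r were not taken over all genes.

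**Figure D5:**
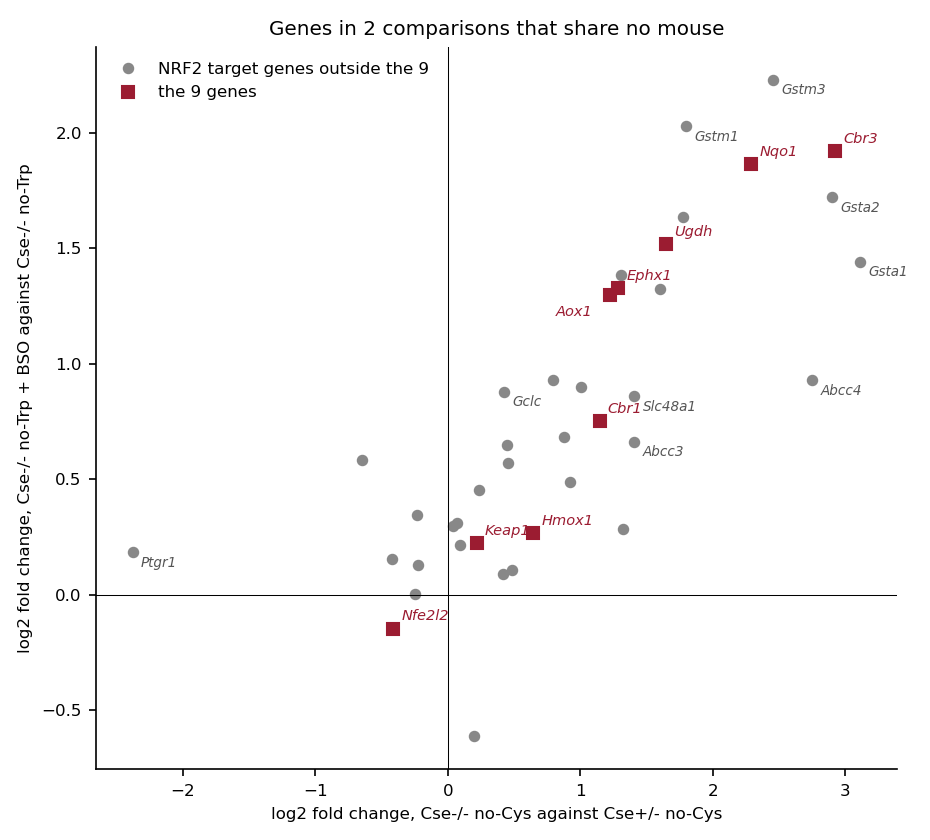
Log2 fold change of Cse-/- no-Cys against Cse+/- no-Cys livers (horizontal axis) and of Cse-/- no-Trp + BSO against Cse-/- no-Trp livers (vertical axis) for the 9 genes (red squares) and 31 other NRF2 target genes (grey circles). Most lie in the upper right, while Ptgr1 is at -2.38 on the horizontal and 0.19 on the vertical axis.

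Hmox1 acts with genes of heme breakdown and iron storage. Of 7 of these, 5 were called higher for genotype on no-Cys, against 11.6% of all genes (median 0.79 against -0.01). Slc48a1, a heme transporter, was the highest (1.41, edgeR adjusted p = 1.90e-07), followed by the ferritin heavy chain Fth1 (0.92, adjusted p = 4.65e-05). With BSO 3 were called higher, against 0.488% (median 0.49 against -0.0048), Blvrb, a biliverdin reductase (0.93, adjusted p = 0.0383), Slc48a1 (0.86, adjusted p = 0.00216) and Ftl1, the ferritin light chain (0.68, adjusted p = 0.0188). In both comparisons edgeR and DESeq2 called 0 lower, and 0 had an unadjusted p under 0.05 in that direction. Slc48a1, Blvrb, Fth1 and Ftl1 also stand in the list of NRF2 targets.

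Of 32 other carbonyl, aldehyde, quinone and epoxide enzymes tested, 5 were called higher and 10 lower for genotype on no-Cys (median -0.15 against -0.01), and DESeq2 called 6 and 9. Over all genes 11.6% were called higher, a share near that of this list, and 12.2% lower. Beside Ptgr1, Cyb5r3, the NADH-cytochrome b5 reductase (-1.08, edgeR adjusted p = 9.07e-06), was lowest, and Aldh1b1, a mitochondrial aldehyde dehydrogenase (0.86, adjusted p = 0.0259), and Por, the reductase of cytochrome P450 enzymes (0.68, adjusted p = 0.00660), were highest. With BSO 1 of the 32 was called higher, against 0.488% of all genes. It was Akr1a1, an aldehyde reductase (0.40, adjusted p = 0.0263). edgeR and DESeq2 called 0 lower, with 5 at an unadjusted p under 0.05.

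Ugdh makes the donor for glucuronidation, and of 21 other genes of this route tested 6 were called higher and 4 lower for genotype on no-Cys, against 11.6% and 12.2% of all genes (median 0.10 against -0.01). Ugt2b35, a glucuronosyltransferase, was highest (1.25, edgeR adjusted p = 9.90e-06), followed by Ugp2, which makes UDP-glucose (0.81, adjusted p = 5.51e-05). Ugt2b38 (-2.82, adjusted p = 0.00261) and Ugt1a5 (-2.06, adjusted p = 1.42e-04) were lowest. With BSO 4 were called higher, against 0.488% of all genes, and edgeR called 0 lower (2 at an unadjusted p under 0.05, and 1 by DESeq2), led by Ugt2b35 (1.18, adjusted p = 0.00126) and Ugt2b5 (0.79, adjusted p = 0.0330). Of 13 tested sentinel genes of the receptors AHR, CAR and PXR, which also regulate drug-metabolising enzymes, 2 were called higher and 1 lower for genotype on no-Cys (median 0.00086), near the 11.6% and 12.2% of all genes. By the rule for named genes these were Cyp1a2 (0.73, adjusted p = 0.0340), Cyp3a25 (0.68, adjusted p = 0.0218) and Cyp2c55 (-1.40, adjusted p = 0.0417). With BSO edgeR called 0 of the 13, 3 had an unadjusted p under 0.05, and DESeq2 called 1. Ugt genes also have near-identical copies.

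Over the 20 livers, the genes whose log2 CPM was most like that of each of the 9 were named by Pearson's r, as a description of libraries that share the same 6 groups. For Ephx1 these were Gstm1 (0.98), Gstm2-ps1 (0.98) and Pir (0.97), and for Aox1 Pgrmc1 (0.96), Gstm1 (0.96) and Gsta2 (0.96). For Nqo1 they were Abcf3 (0.96), Cyp2a5 (0.96) and Slc48a1 (0.95), for Cbr3 Eif6 (0.96), Eif4ebp1 (0.95) and Psmb5 (0.93), and for Ugdh Ugt2b35 (0.96), Gle1 (0.95) and Aox1 (0.95). Cbr1 was most like Htatip2 (0.92), Fth1 (0.91) and Grina (0.89). Values were lower for Keap1, with Sirt2 (0.88), Pla2g12a (0.88) and Tex264 (0.86), for Nfe2l2, with Hsf2 (0.86), Chadl (0.84) and Tef (0.79), and for Hmox1, with Osgin1 (0.81), Kdm3b (0.78) and St3gal1 (0.76).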

How the data were processed

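Poly(A) RNA of mouse liver was sequenced in paired ends by the authors, who deposited raw counts of reads per Ensembl gene. The submitters' processing notes name HISAT2 2.1.0, HTSeq 0.11.0 and the build GRCm38, and no source names the strand setting of the count. The table names its columns by mouse, and the groups of the 20 columns used came from the study's list of mice. 1 other column was not used. The 9 genes and all lists were chosen with earlier results of these data known.

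Genes were kept by filterByExpr in edgeR 4.0.16 (minimum count 10, minimum total 15), libraries were scaled by TMM factors, and all 20 libraries were fitted together with the quasi-likelihood test in R 4.3.3 (limma 3.58.1), with Benjamini-Hochberg adjustment over 14759 genes. The study's own test, DESeq2 (here 1.42.0), was an alternative, as were other scaling factors and filters, thinning and leaving out each library. The 95% intervals come from the same fit. Levels per kilobase use GENCODE exon lengths. On simulated counts with 200 genes changed between Cse-/- no-Cys and Cse+/- no-Cys, among 14456 genes, the test recovered 73% at 2-fold and 88% at 4-fold, with 5 false calls. Libraries of a group differed beyond counting noise in all 25 pairs (chi-square per gene 9.60 to 64.2). Named were the 9 genes, Cth, the 3 genes most like each of the 9, and of each list up to 2 of the highest and 2 of the lowest called in the comparisons of genotype on no-Cys and of BSO. Of the 9 genes Cbr3 had the fewest counts per library (4 to 183).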

Additional observations from a re-analysis of the deposited data

Results flagged for a closer look

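In groups of 4 mice, 27 sets of values (9 genes in 3 groups) were tested for a mouse apart from the rest with Dixon's test, and 4 were found, where chance gives about 1 in 20. In Cse-/- no-Trp + BSO livers, mouse av10 stood apart for Aox1 (73.0 CPM, below the others) and for Hmox1 (24.9 CPM, above the others). In Cse+/- no-Cys livers, av01 stood apart for Cbr3 (0.360 CPM, from 4 counts) and av03 for Aox1 (44.3 CPM), both below the others.

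The genotype difference on the no-Cys diet differed from that on the no-Trp diet, by the edgeR test of the difference itself, in 7 of the 9 genes (6 higher, against 1.67% of all genes, and 1 lower, against 2.69%). The calls of Nfe2l2, Cbr1, Aox1 and Hmox1 were each lost on leaving out at least 1 of the libraries. On the log2 scale it was larger by 3.52 for Cbr3, 1.74 for Nqo1, 1.41 for Cbr1, 1.29 for Ephx1, 1.10 for Aox1 and 1.09 for Hmox1, and it was lower for Nfe2l2 (-0.68).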

How the results depend on the processing

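No call among the 72 values of the 9 genes in 8 comparisons changed sign under any alternative, and 29 of the 72 were calls. RLE and upper-quartile factors in place of TMM, and a minimum mean CPM of 1, ended and added no call among the 72. At an adjusted p under 0.01 the number of the 9 genes called was 1 in place of 7 for the difference of genotype between diets, 0 in place of 1 for no-Trp + BSO against no-Cys and for Cse+/- no-Cys against control, 6 in place of 9 for genotype on no-Cys (without Nfe2l2, Keap1 and Hmox1) and 4 in place of 5 for BSO (without Cbr3). Fitting only the groups compared also gave 0 for no-Trp + BSO against no-Cys and for Cse+/- no-Cys against control. Thinning to the shallowest library gave 0 for no-Trp + BSO against no-Cys. For Cse+/- no-Trp against control, DESeq2 and no filter on low counts gave 1 in place of 0.

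Leaving out each library in turn gave 4 to 7 genes for the difference of genotype between diets (4 without av19), 0 to 2 for no-Trp + BSO against no-Cys, and 0 to 1 for each diet against control in Cse+/- mice. Leaving out a library changed the sign of an uncalled value 24 times, and thinning did so 1 time. Most of these were values near 0 in each diet against control in Cse+/- mice and of Ephx1 between genotypes on no-Trp. The others were those of Hmox1 in Cse-/- no-Cys against no-Trp (-0.030 to 0.19), Nqo1 (-0.29 to 0.032) and Aox1 (-0.0084 to 0.27) in no-Trp + BSO against no-Cys. The causes were not tested. Thinned to the shallowest library, the change of Cbr3 with BSO was 1.85 (adjusted p = 0.0518) and that of Keap1 between genotypes on no-Cys was 0.21 (adjusted p = 0.0839), neither a call.

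No paired analysis was possible because the columns of the count table carry mouse numbers and not the replicate numbers of the labels.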
